A study of Homo sapiens with 6 samples.

Results

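The 37 genes described here encode the glucose transporters, the enzymes of glycolysis, the regulators of its phosphofructokinase step, and the proteins that turn pyruvate into lactate or carry it into the mitochondrion and oxidise it. They were taken by gene symbol from the 58825 genes of the deposited table, and each symbol matched exactly 1 row. Their RNA was compared between 2 groups of PANC-1 cells, a line long kept in culture that comes from a carcinoma of the human pancreatic duct. The first group, with 3 libraries, received 8 µM of a compound labelled CMR for 48 h; the second, with 3 libraries, is labelled control, and what those cells received is not stated. CMR is not spelled out in the labels, which also leave unsaid whether each library had its own culture. The p-values therefore reflect the spread among the 6 libraries alone, and that spread may be technical.

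In glycolysis, glucose enters the cell through facilitative transporters, is trapped by hexokinase as glucose 6-phosphate, is committed at phosphofructokinase and is split and oxidised to pyruvate. Pyruvate is then either reduced to lactate by lactate dehydrogenase and exported by monocarboxylate transporters, or passed through the mitochondrial pyruvate carrier to the pyruvate dehydrogenase complex. That complex is switched off by its kinases (PDK1 to PDK4) and on by its phosphatases. Pancreatic carcinoma cells are known for high glucose uptake and lactate release.

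CMR-treated cells held more RNA for a glucose transporter, 2 hexokinases and a subunit of the mitochondrial pyruvate carrier, and less for several enzymes of the trunk of the pathway, for lactate dehydrogenase and for a lactate exporter. Relative to control, the fitted levels were 5.12-fold higher for the glucose transporter SLC2A1, 10.6-fold higher for hexokinase 2 (HK2) and 7.22-fold higher for the pyruvate carrier subunit MPC1. They were 3.02-fold lower for lactate dehydrogenase A (LDHA) and 3.19-fold lower for the lactate exporter SLC16A3. Counts were tested with edgeR's quasi-likelihood test, and a gene was called at a Benjamini-Hochberg adjusted p under 0.05 over the 19200 genes tested. All 37 members passed the filter on low counts, and 24 (64.9%) were called, 9 higher and 15 lower, against 38.6% of all tested genes, 20.5% higher and 18.1% lower. Of the called members, 6 in each direction (16.2% of the 37) differed by 2-fold or more, against 9.87% higher and 8.55% lower of all tested genes. The median log2 fold change of the 37 was -0.17, beside -0.01 for all tested genes. In normalised counts the 2 groups did not overlap for 26 members (70.3%), against 53.9% of all tested genes.

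**Figure D1:**
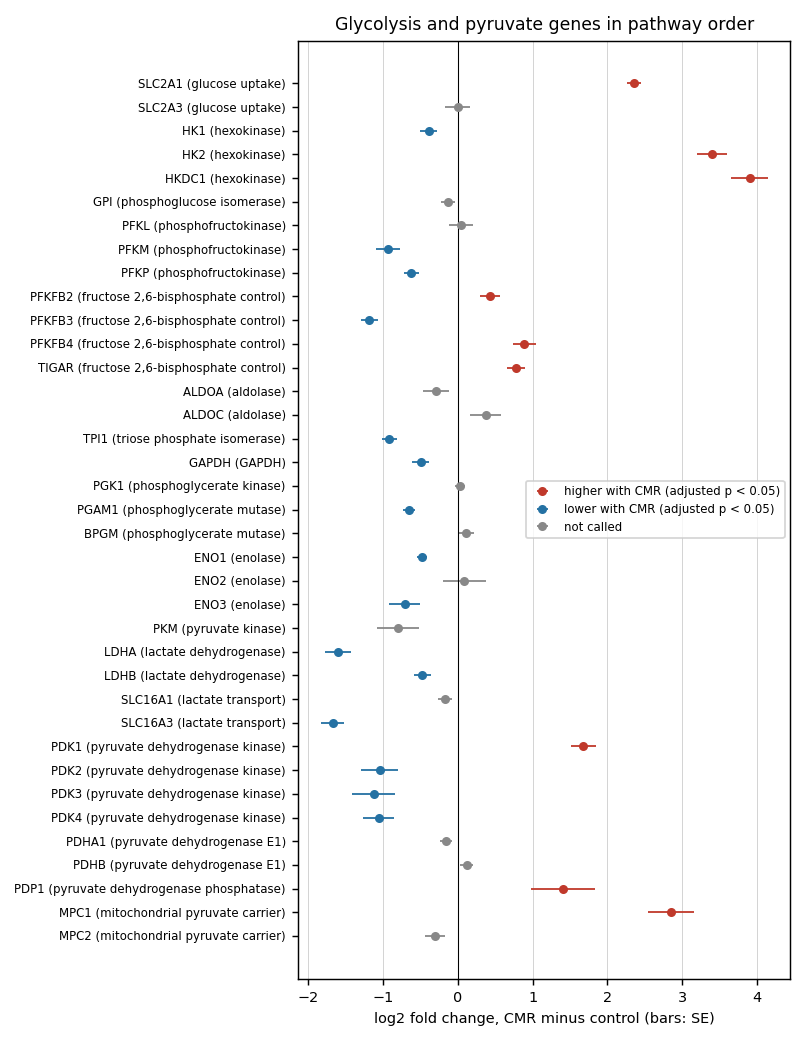
Fitted log2 fold change of each of the 37 genes (CMR minus control, bars are standard errors, 3 libraries per group), in pathway order from glucose uptake at the top. The bar of SLC2A3 (0.17), a gene with 0 to 17 counts per library, is too short to show its uncertainty. Leaving out 1 library moved its value between -0.60 and 0.63. Red points are genes called higher, blue points genes called lower and grey points genes not called; the largest rises are HKDC1 (3.90) and HK2 (3.40), the largest falls SLC16A3 (-1.67) and LDHA (-1.60).

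Library totals ran from 51147268 to 70129221 counts. Log expression of all tested genes correlated with r from 0.984 to 0.987 between libraries of a group and from 0.942 to 0.962 between groups, across genes, which are not independent replicates. Among the CMR libraries, replicate 3 lay farthest from control in 68.3% of all genes called higher and 67.4% of those called lower, and likewise in 7 of the 9 members called higher and 11 of the 15 called lower. The markers of a ductal carcinoma line (KRT7, KRT8, KRT18, KRT19, VIM and SOX9) were all detected, with a summed level of 1242 to 1336 FPKM in control and 335 to 544 with CMR, and 5 of the 6 fell. Without CMR replicate 2 or 3 or control replicate 1 or 2, 3 of the 6 did, as KRT7 and KRT18 were then not called. FPKM denotes the deposited values, fragments scaled to transcript length and to the size of the library. The summed level of 6 acinar markers did not pass 0.176 FPKM in any library, of 6 adipocyte markers 0.274, of 5 leukocyte markers 0.457 and of 4 endothelial markers 0.0885, and all 5 endocrine markers were at 0 counts. Of the other lists, 3 acinar, 1 adipocyte and 2 leukocyte markers were at 0 in every library. The acinar marker PRSS1, which encodes trypsinogen, had 17, 15 and 14 counts with CMR and 0 in each control library, and was called higher (edgeR adjusted p = 0.0109). The part of these marker changes in the results below was not tested. In bulk RNA, fewer cells of a kind and less RNA per cell cannot be told apart.

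Levels below are FPKM, which are scaled to gene length and can be set against each other between genes, while fold changes and their errors come from the edgeR fit of the counts. The log2 ratio of mean FPKM minus the fitted log2 fold change had a median of -0.08 over the 37 genes. The 37 genes together took 0.814 to 0.979% of all counts in the CMR libraries and 1.28 to 1.32% in the control libraries, without overlap (exact permutation test over libraries, two-sided, p = 0.1, the smallest that 3 against 3 can give).

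The start-site regions of genes that moved far in opposite directions are given here because they show which letters the windows share. RefSeq windows (GRCh38.p14) of 300 bases, 250 before and 50 after a transcription start, were matched by symbol for 33 of the 37 genes, taking the start nearest to that of the deposited gene. Letters in capitals are matches, on either strand, to ACGTG or GCGTG (the core of hypoxia-inducible factor sites), CACGTG (the E-box, which contains ACGTG), TGATGNAAN (the amino acid response element) or TGACNNNGC (the antioxidant response element). HK2 lies on the plus strand of chromosome 2 (gene span 74833981 to 74893359), LDHA on the plus strand of chromosome 11 (18394560 to 18408425) and MPC1 on the minus strand of chromosome 6 (166364919 to 166383013). Their windows are chr2:74833877-74834176, chr11:18394313-18394612 and chr6:166382891-166383190, in that order, and the RefSeq starts lie 146, 3 and 73 bases from the starts in the deposited table.
HK2: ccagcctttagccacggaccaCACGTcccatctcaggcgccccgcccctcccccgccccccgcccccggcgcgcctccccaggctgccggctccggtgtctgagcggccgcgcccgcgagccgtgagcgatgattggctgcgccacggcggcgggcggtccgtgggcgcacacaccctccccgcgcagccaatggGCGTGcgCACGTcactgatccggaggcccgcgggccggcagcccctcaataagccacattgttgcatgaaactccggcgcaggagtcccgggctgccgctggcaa
LDHA: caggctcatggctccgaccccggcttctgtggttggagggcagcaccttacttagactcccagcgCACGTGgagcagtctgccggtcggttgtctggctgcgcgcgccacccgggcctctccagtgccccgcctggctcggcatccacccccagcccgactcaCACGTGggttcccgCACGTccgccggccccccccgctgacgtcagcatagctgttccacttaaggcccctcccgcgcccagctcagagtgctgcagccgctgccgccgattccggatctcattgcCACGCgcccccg
MPC1: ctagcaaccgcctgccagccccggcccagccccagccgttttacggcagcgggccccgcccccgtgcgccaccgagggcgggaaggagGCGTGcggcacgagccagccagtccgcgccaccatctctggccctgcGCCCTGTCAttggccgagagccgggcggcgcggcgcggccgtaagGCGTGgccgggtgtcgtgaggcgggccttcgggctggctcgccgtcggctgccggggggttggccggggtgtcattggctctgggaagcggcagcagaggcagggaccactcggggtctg
HK2, which rose, held ACGTG at 2 places, 229 and 48 bases before the start, and GCGTG 55 bases before it. LDHA, which fell, held ACGTG at 5 overlapping or separate places, among them the overlapping pairs that make up 2 CACGTG motifs that begin 185 and 87 bases before the start, and 1 GCGTG after the start. GCGTG was thus present in all 3 windows printed. MPC1 held GCGTG at 2 places and 1 match to TGACNNNGC. The window of SLC2A1 held GCGTG after the start only, and that of SLC16A3 none of the 5 motifs. Over the 33 windows, ACGTG was present in 13 (21.6% of 27305 symbols' windows hold it), GCGTG in 18 (36.3%), CACGTG in 4 (7.43%), TGATGNAAN in 1 (3.67%) and TGACNNNGC in 5 (13.6%). By direction, ACGTG stood in 2 of 7 windows of genes called higher, 4 of 15 called lower and 7 of 11 not called, and GCGTG in 5, 6 and 7 of these. A match describes the letters of the window and is not a bound site, and no match says only that the letters are not in it.

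Of the glucose transporter transcripts, SLC2A1 rose; it encodes GLUT1, the basal glucose transporter of most cells. Its level was 29.7, 29.5 and 30.7 FPKM in CMR replicates 1 to 3 and 5.69, 6.54 and 6.24 in the control replicates (chromosome 1, minus strand, 42925375 to 42959176). The 3 treated libraries lay close together and all above the control libraries, and SLC2A1 rose by 2.36 ± 0.09 on the log2 scale (SE, n = 3 per group, edgeR adjusted p = 2.7e-05). SLC2A3, the high-affinity transporter GLUT3, was close to absent: its counts were 17, 14 and 4 with CMR and 12, 16 and 0 in control. At that depth a difference in SLC2A3 was not detectable (edgeR adjusted p = 0.9999), and rows named as its pseudogenes held more counts than the gene itself.

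Among the hexokinases, the enzyme that leads by transcript level differed between the groups. HK1, the widely expressed form, averaged 24.8 ± 2.52 FPKM (SD, n = 3) in control and 17.9 ± 1.59 with CMR. HK2, the inducible form typical of muscle, fat and tumours, stood at 2.72, 2.98 and 2.93 FPKM in control and at 22.5, 27.1 and 36.6 with CMR (log2 fold change 3.40 ± 0.20, edgeR adjusted p = 6.9e-05). All treated libraries exceeded all control libraries for HK2, and the CMR libraries differed among themselves by more than the control libraries did. HKDC1, a hexokinase-like gene whose product binds mitochondria, rose from 0.292, 0.184 and 0.285 FPKM to 4.31, 3.75 and 2.96, the largest fitted change of the 37 genes (log2 fold change 3.90 ± 0.25, 14.9-fold, edgeR adjusted p = 8.9e-05). HKDC1 and HK1 are neighbours on the plus strand of chromosome 10, with 2431 bases between the end of HKDC1 (69220332 to 69267552) and the start of HK1 (69269984 to 69401884), and they moved in opposite directions.

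The fall of HK1 was small and less secure than the rises (log2 fold change -0.39 ± 0.12, edgeR adjusted p = 0.0330). It did not pass when CMR replicate 1 (0.0591) or 2 (0.0682) or control replicate 2 (0.0924) or 3 (0.114) was left out. Its adjusted p ran from 0.00911 to 0.114 over the 16 alternatives tried. As a share of the summed hexokinase level, HK2 made up 52.5, 54.9 and 62.4% in the CMR libraries against 10.8, 10.6 and 9.61% in control, while HK1 averaged 35.8% with CMR and 88.7% in control. These shares are ratios within a library, so that scaling between libraries does not enter them, and the groups did not overlap. The exact permutation test over libraries gave p = 0.1 for each, the smallest possible, and 0.122 after Benjamini-Hochberg adjustment over the 11 shares compared. Summed over the 3 genes, hexokinase was 50.3 ± 7.85 FPKM with CMR and 27.9 ± 2.62 in control (SD, n = 3).

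**Figure D2:**
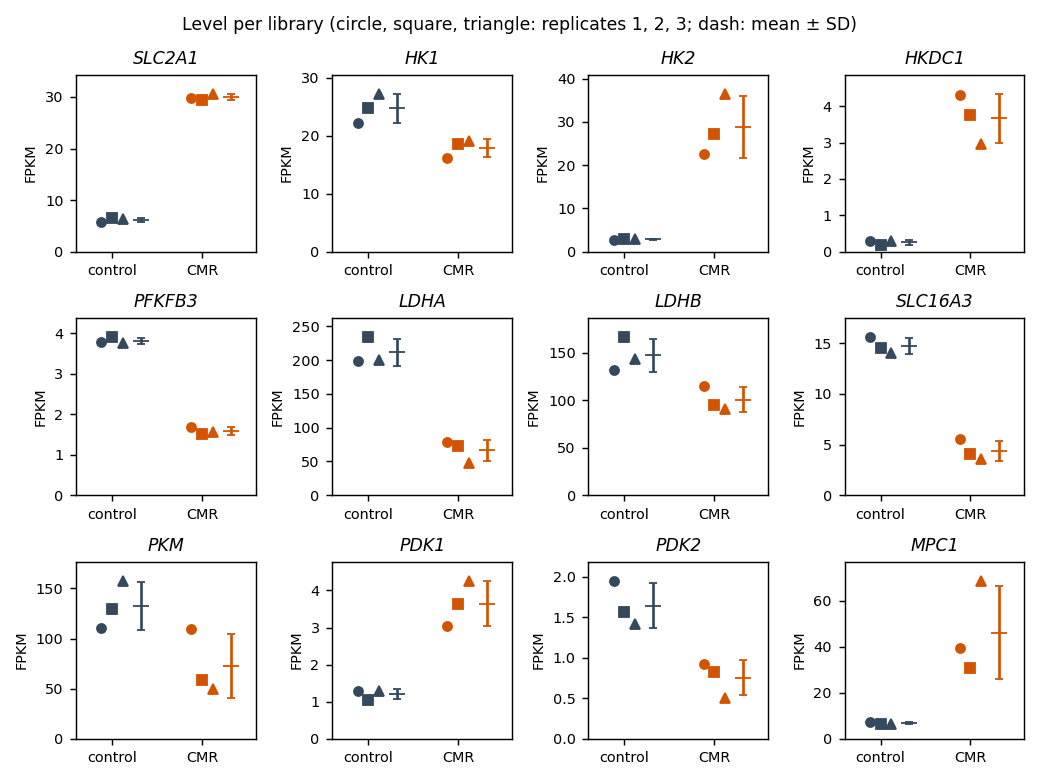
Level in FPKM of 12 members in each library (linear axes from 0; circles, squares and triangles are replicates 1, 2 and 3; dashes with bars are group means ± SD, n = 3). The gap between the groups is wide for SLC2A1, HK2, PFKFB3, LDHA and SLC16A3; for PKM, CMR replicate 1 (109 FPKM) lies next to the lowest control library (111 FPKM).

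GPI, which converts glucose 6-phosphate to fructose 6-phosphate, was not called (16.5 ± 1.68 FPKM with CMR, 19.1 ± 1.43 in control, log2 fold change -0.13 ± 0.09). Phosphofructokinase, the committing step, is a tetramer of platelet (PFKP), muscle (PFKM) and liver (PFKL) type subunits. PFKP dominated in these cells and fell from 45.9, 44.0 and 43.0 FPKM to 31.4, 26.3 and 24.2 (log2 fold change -0.62 ± 0.10, edgeR adjusted p = 0.00263). PFKM fell further on the log scale, from 5.96 ± 0.483 to 2.95 ± 0.590 FPKM (log2 fold change -0.94 ± 0.16, edgeR adjusted p = 0.00346). PFKM shares its locus with SENP1, which lies on the other strand and had 221% of its counts. PFKL, at 2.51 ± 0.413 FPKM with CMR and 2.57 ± 0.381 in control, was not called. PFKP was 83.4 ± 1.55% of the summed level with CMR and 83.9 ± 0.932% in control (SD, n = 3), with overlapping ranges (exact permutation p = 0.7). PFKM made up 9.08, 9.80 and 8.01% with CMR and 11.6, 10.6 and 11.6% in control, without overlap (exact permutation p = 0.1, adjusted 0.122 over the 11 shares).

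Phosphofructokinase is driven by fructose 2,6-bisphosphate, which the bifunctional PFKFB enzymes make and break and which TIGAR also breaks down. PFKFB3, the form with the strongest synthetic activity, fell from 3.78, 3.91 and 3.75 FPKM to 1.69, 1.52 and 1.56 (log2 fold change -1.18 ± 0.11, edgeR adjusted p = 0.000327). PFKFB4 rose from 0.887 ± 0.0388 to 1.56 ± 0.191 FPKM (log2 fold change 0.89 ± 0.16, edgeR adjusted p = 0.00416), and TIGAR rose from 2.30 ± 0.0777 to 3.74 ± 0.319 FPKM (log2 fold change 0.78 ± 0.12, edgeR adjusted p = 0.00195). The groups did not overlap for any of these 3 genes. PFKFB2, the most abundant of the 3 PFKFB genes measured here, was called higher (6.12 ± 0.466 FPKM in control, 7.84 ± 1.22 with CMR, log2 fold change 0.43 ± 0.13, edgeR adjusted p = 0.0335). In FPKM the groups overlapped for PFKFB2, since CMR replicate 3 (6.43) lay below control replicate 2 (6.48). That PFKFB2 call was lost in 10 of the 16 alternatives, with adjusted p from 0.00770 to 0.117 over all of them. It was lost without CMR replicate 1 (0.0776) or 2 (0.107) and without control replicate 1 (0.117), 2 (0.0671) or 3 (0.0795). YOD1, which overlaps PFKFB2 on the other strand, had 75.3% of its counts and rose. PFKFB3 made up 35.3 ± 1.48% of the summed PFKFB level in control and 14.6 ± 1.52% with CMR, without overlap.

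The enzymes that split and isomerise the sugar followed. ALDOA, the main aldolase of these cells, had 78.8, 116 and 121 FPKM with CMR and 143, 136 and 129 in control. ALDOA was not called (edgeR adjusted p = 0.219, log2 fold change -0.29 ± 0.17). A same-strand gene listed as AC093512 covers the whole of ALDOA, held 29.4% of its counts and was itself not called (edgeR adjusted p = 0.0533, log2 fold change 0.44). With the counts of both added together, an alternative chosen after seeing the data, the log2 fold change was -0.13 (adjusted p = 0.463). ALDOC, the brain-type aldolase, stood at 1.93 ± 0.482 FPKM with CMR and 1.56 ± 0.105 in control and was not called. It too is overlapped on its own strand, by a gene listed as AC005726 with 68.7% of its counts. TPI1, which interconverts the triose phosphates, fell from 164, 165 and 174 FPKM to 91.3, 89.8 and 72.1 (log2 fold change -0.92 ± 0.10, edgeR adjusted p = 0.000571). All control libraries lay well above all treated ones for TPI1, and its numbered pseudogenes held counts equal to 2.59% of its own.

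In the lower part of glycolysis, GAPDH, PGAM1 and ENO1 fell while PGK1 was not called. GAPDH, which makes NADH from glyceraldehyde 3-phosphate, was the most abundant member, at 785, 607 and 555 FPKM with CMR and 1001, 957 and 932 in control. Its groups did not overlap (log2 fold change -0.50 ± 0.12, edgeR adjusted p = 0.0141), but the call was lost without CMR replicate 2 (0.0520) or control replicate 1 (0.0538), with adjusted p from 0.00104 to 0.0538 over the 16 alternatives. PGK1, which makes the first ATP of the pathway, lay within a narrow range, from 98.9 to 102 FPKM with CMR and from 102 to 108 in control (fitted log2 fold change 0.03 ± 0.06, with an opposite sign in 4 of 16 alternatives). PGAM1, which moves the phosphate of phosphoglycerate, fell from 238 ± 18.6 to 144 ± 9.33 FPKM (log2 fold change -0.65 ± 0.08, edgeR adjusted p = 0.00109). BPGM, which makes 2,3-bisphosphoglycerate, was at 9.85 ± 0.497 FPKM with CMR and 9.62 ± 0.768 in control and was not called.

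Enolase makes phosphoenolpyruvate, and ENO1 supplied 98.5 ± 0.505% of its summed level with CMR and 98.9 ± 0.0628% in control. ENO1 fell from 424, 425 and 420 FPKM to 313, 275 and 275, with no overlap (log2 fold change -0.48 ± 0.07, edgeR adjusted p = 0.00138). The neuronal form ENO2 was at 3.91, 2.27 and 5.29 FPKM with CMR and 3.53, 3.74 and 4.13 in control, so that the treated libraries lay on both sides of the controls, and it was not called (log2 fold change 0.09 ± 0.29). LRRC23 overlaps ENO2 on the same strand and had 22.1% of its counts. The muscle form ENO3 was low, 0.634 ± 0.129 FPKM with CMR and 1.10 ± 0.0805 in control, and was called lower (edgeR adjusted p = 0.0300). PFN1, which overlaps ENO3 on the other strand and also fell, had counts equal to 13219% of those of ENO3. The ENO3 call was lost without any 1 of CMR replicates 2 (0.0638) and 3 (0.0600) and control replicates 1 (0.0998), 2 (0.0705) and 3 (0.0640); its adjusted p ran from 0.00566 to 0.0998 over the 16 alternatives.

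PKM, the pyruvate kinase gene that yields both the M1 and M2 forms, varied more between libraries than its neighbours in the pathway. It had 109, 58.6 and 49.6 FPKM in CMR replicates 1 to 3 and 111, 129 and 158 in control. CMR replicate 1 stood at the level of the lowest control, while the other two treated libraries were far below. PKM was not called (edgeR adjusted p = 0.0615, log2 fold change -0.80 ± 0.28), and without CMR replicate 1 it was called lower (log2 fold change -1.21, adjusted p = 0.00286). It was also called lower by DESeq2 (adjusted p = 0.0109), by limma on FPKM and with upper-quartile scaling, the adjusted p running from 0.00286 to 0.174 over the 16 alternatives.

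**Figure D3:**
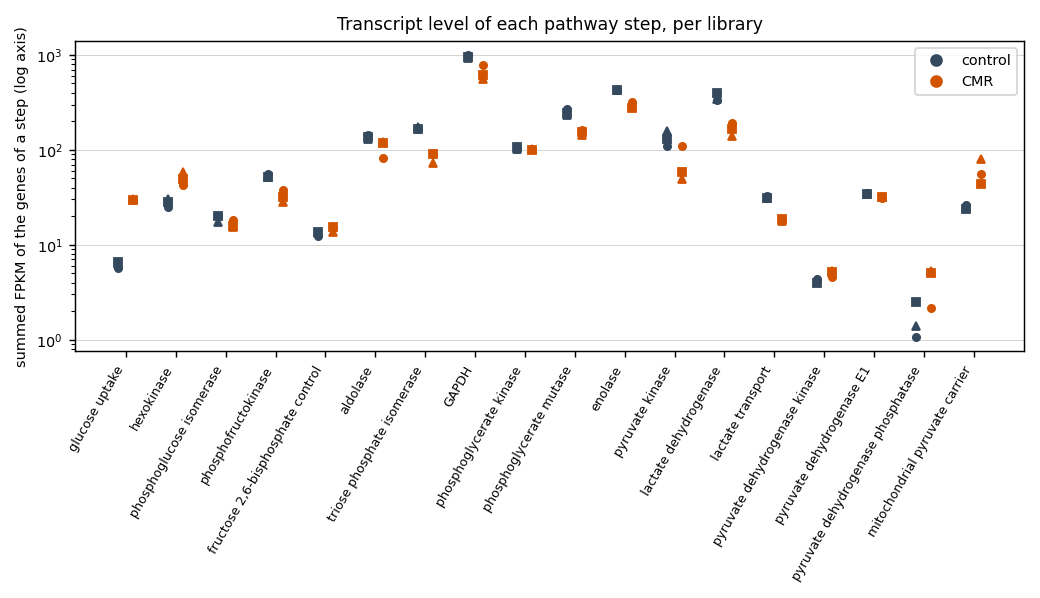
Summed FPKM of the genes of each pathway step in each library (log axis; dark blue control, orange CMR; circles, squares and triangles are replicates 1, 2 and 3). Glucose uptake, hexokinase and the mitochondrial pyruvate carrier lie higher with CMR; phosphofructokinase, triose phosphate isomerase, GAPDH, phosphoglycerate mutase, enolase, lactate dehydrogenase and lactate transport lie lower. The exact permutation test gave p = 0.1 for 16 of the 18 steps, the smallest possible, and 0.1125 after adjustment over the 18. This p shows only that FPKM ranges did not overlap, which in normalised counts held for 53.9% of all tested genes. The 16 include near-level steps, among them phosphoglycerate kinase (CMR over control 0.966) and pyruvate dehydrogenase E1 (0.923). In normalised counts the groups overlapped for PGK1.

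Summed by step, lactate dehydrogenase was 167 ± 27.3 FPKM with CMR and 359 ± 36.9 in control (SD, n = 3). LDHA, whose subunit favours the making of lactate, had 78.5, 72.2 and 48.4 FPKM with CMR and 199, 234 and 200 in control. Its control libraries all exceeded the highest treated library by more than 2-fold (log2 fold change -1.60 ± 0.17, edgeR adjusted p = 0.000573). LDHB, whose subunit is typical of heart and of lactate-using tissue, also fell, from 147 FPKM on average to 101 (log2 fold change -0.47 ± 0.12, edgeR adjusted p = 0.0164). The LDHB call did not hold when CMR replicate 2 (0.0605) or 3 (0.0515) or control replicate 2 (0.0601) was left out, with adjusted p from 0.00346 to 0.0605 over the 16 alternatives. LDHA made up 60.1, 58.4 and 58.3% of the summed level in control and 40.5, 43.1 and 34.7% with CMR, so that LDHB was the more abundant transcript of the pair in all 3 treated libraries and the less abundant in all 3 controls (exact permutation p = 0.1, adjusted 0.122).

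Of the lactate transporters, SLC16A3 fell and SLC16A1 was not called. SLC16A3 (MCT4), the low-affinity exporter of strongly glycolytic cells, had 5.51, 4.09 and 3.53 FPKM with CMR and 15.6, 14.5 and 14.02 in control (fitted log2 fold change -1.67 ± 0.16, edgeR adjusted p = 0.000340). The groups were far apart, though the span of SLC16A3 overlaps CSNK1D on the other strand, which had 153% of its counts and also fell (log2 fold change -0.34). SLC16A1 (MCT1), which carries lactate both ways, was at 14.1 ± 0.841 FPKM with CMR and 16.8 ± 0.130 in control and was not called (edgeR adjusted p = 0.170, log2 fold change -0.17 ± 0.09). SLC16A1 was called lower under 3 of the 16 alternatives, the 2 fits of limma on FPKM and upper-quartile scaling, with adjusted p from 0.0250 to 0.323 over all of them. SLC16A3 made up 46.7 ± 1.36% of the pair in control and 23.6 ± 5.22% with CMR.

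**Figure D4:**
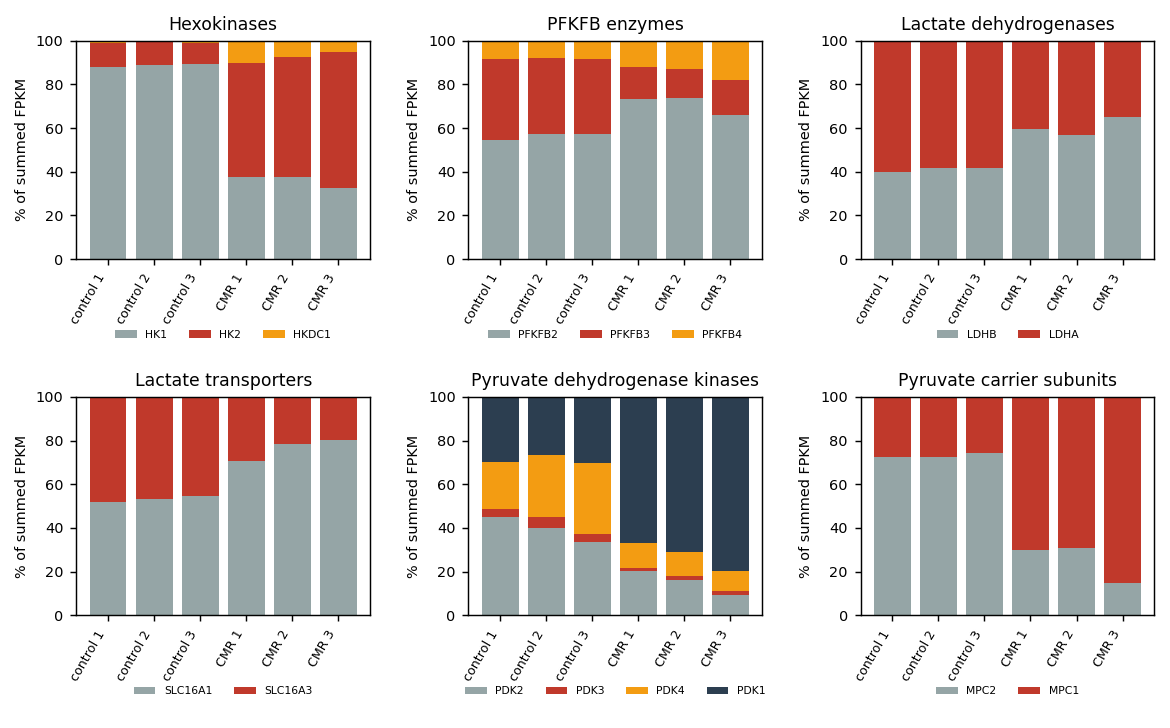
Make-up of 6 gene families in each library, as percent of the family's summed FPKM (stacked bars, 3 control libraries on the left of each panel and 3 CMR libraries on the right). Mean shares in control and with CMR are 10.3% and 56.6% for HK2, 28.9% and 72.7% for PDK1, 26.95% and 74.8% for MPC1, and 59.0% and 39.4% for LDHA.

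On the mitochondrial side, MPC1 rose and its partner was not called. MPC1 and MPC2 form the heterodimeric carrier of pyruvate across the inner mitochondrial membrane. MPC1 had 39.2, 30.5 and 68.7 FPKM with CMR and 7.29, 6.4998 and 6.49 in control (fitted log2 fold change 2.85 ± 0.31, edgeR adjusted p = 0.000571). Each treated library was several times the highest control, and CMR replicate 3 was more than 2-fold the level of replicate 2. MPC2 was at 14.1 ± 2.56 FPKM with CMR and 18.3 ± 1.14 in control and was not called (edgeR adjusted p = 0.126, log2 fold change -0.30 ± 0.14). It was called lower without CMR replicate 1 (0.0221) and with upper-quartile scaling (0.0474), its adjusted p running from 0.0221 to 0.291 over the 16 alternatives. MPC2 overlaps DCAF6 on the other strand, which had 211% of its counts. The ratio of MPC1 to MPC2 was 0.347 to 0.382 in the control libraries and 2.24 to 5.80 in the treated ones, and that of MPC1 to LDHA 0.0278 to 0.0366 and 0.423 to 1.42.

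The pyruvate dehydrogenase kinases split, PDK1 rising while PDK2, PDK3 and PDK4 fell. These kinases phosphorylate and inactivate the E1 subunit. PDK1 had 3.03, 3.64 and 4.27 FPKM with CMR and 1.29, 1.04 and 1.29 in control (fitted log2 fold change 1.68 ± 0.17, edgeR adjusted p = 0.000439). PDK4, the starvation-induced kinase, fell from 0.946, 1.11 and 1.37 FPKM to 0.517, 0.560 and 0.484 (log2 fold change -1.06 ± 0.20, edgeR adjusted p = 0.00583). PDK2, the widely expressed kinase, fell from 1.64 ± 0.277 to 0.752 ± 0.217 FPKM (log2 fold change -1.05 ± 0.25, edgeR adjusted p = 0.0134); SAMD14 overlaps it on the other strand with 11.7% of its counts. PDK3, low at 0.173 ± 0.0272 FPKM in control and 0.0750 ± 0.0199 with CMR, also fell (log2 fold change -1.12 ± 0.29, edgeR adjusted p = 0.0196). Its counts were 57, 104 and 90 with CMR and 135, 171 and 158 in control. For none of the 4 kinases did the groups overlap. The PDK2 call was lost without control replicate 1 (0.0523) and the PDK3 call without control replicate 2 (0.0689), with adjusted p from 0.000236 to 0.0523 for PDK2 and from 0.00333 to 0.0689 for PDK3 over the 16 alternatives. PDK1 made up 67.1, 71.1 and 79.9% of the summed kinase level with CMR and 29.6, 26.6 and 30.4% in control. The sum over the kinases moved little by comparison, 4.99 ± 0.422 FPKM with CMR and 4.16 ± 0.224 in control, a ratio of 1.20.

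The target of these kinases was nearly level. PDHA1, the E1 alpha subunit that carries the regulated serines, was at 16.9 ± 0.487 FPKM with CMR and 19.98 ± 0.592 in control (fitted log2 fold change -0.16 ± 0.08, edgeR adjusted p = 0.151). PDHA1 was called lower under 4 of the 16 alternatives, in which the scaling of the libraries differed, with adjusted p from 0.0211 to 0.340 over all of them. PDHB, the E1 beta subunit, was at 14.9 ± 0.777 and 14.4 ± 0.804 FPKM and was not called. PDP1, a phosphatase that reactivates the complex, had 2.18, 4.99 and 5.24 FPKM with CMR and 1.06, 2.50 and 1.39 in control. The groups overlapped for PDP1, since CMR replicate 1 lay below control replicate 2, and it was called higher at an edgeR adjusted p of 0.0358 (log2 fold change 1.41 ± 0.43). PDP1 did not pass when CMR replicate 2 (0.106) or 3 (0.114) or control replicate 1 (0.107) or 3 (0.109) was left out, and its adjusted p ran from 0.00123 to 0.114 over the 16 alternatives.

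Other genes of glucose and pyruvate metabolism were taken from 8 lists. The counts called in each list stand beside those of all tested genes, 20.5% called higher and 18.1% called lower. Of 8 genes listed with the pyruvate dehydrogenase complex and pyruvate carboxylase, 7 were tested, 4 rose and 3 were not called, with a median log2 fold change of 0.64. PCK2, the mitochondrial enzyme that makes phosphoenolpyruvate, rose from 1.66, 1.42 and 2.16 FPKM to 12.5, 9.15 and 8.12 (log2 fold change 2.57 ± 0.22, edgeR adjusted p = 0.000249). PDP2, the other phosphatase of the complex, rose from 1.47 ± 0.859 to 3.76 ± 0.202 FPKM (log2 fold change 1.43 ± 0.38, edgeR adjusted p = 0.0210). PDP2 did not pass when CMR replicate 2 (0.0585) or 3 (0.0594) or control replicate 2 (0.0740) was left out, its adjusted p running from 0.000207 to 0.0740 over the 16 alternatives. The remaining rises, named after their values were seen, were those of PDHX, the E3-binding subunit (13.4 ± 0.388 to 19.8 ± 1.71 FPKM), and PC, pyruvate carboxylase (1.123 ± 0.121 to 2.44 ± 0.411 FPKM). PDHX overlaps APIP on the other strand (75.4% of its counts) and PC overlaps LRFN4 (69.5%).

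Of 16 TCA cycle genes, 4 fell and 12 were not called, beside 38.6% of all tested genes called and 18.1% called lower. Their median log2 fold change was -0.20, and with upper-quartile scaling 7 fell. SDHA, a succinate dehydrogenase subunit among the 4 and named after its values were seen, was not called without CMR replicate 2 (0.101) or 3 (0.0836) or control replicate 2 (0.117) or 3 (0.110), its adjusted p running from 0.0126 to 0.117 over the 16 alternatives. FH, fumarate hydratase, named likewise, was not called without control replicate 1 (0.0542, with a range from 0.00136 to 0.0542). The falls with the largest change were those of CS, the citrate synthase gene (41.7 ± 1.90 to 26.3 ± 0.887 FPKM, log2 fold change -0.59 ± 0.07), and OGDH, of the oxoglutarate dehydrogenase complex (28.4 ± 0.844 to 18.4 ± 1.63 FPKM, log2 fold change -0.55 ± 0.08). Of 10 genes listed with the NADH shuttles, which return glycolytic reducing power to the mitochondrion, 9 were tested, 2 rose and 3 fell. SLC25A11, among the 3 and named after its values were seen, was not called without CMR replicate 2 (0.105) or 3 (0.0830). The same held without control replicate 1 (0.0629), 2 (0.132) or 3 (0.0935), its adjusted p running from 0.0116 to 0.132 over the 16 alternatives. On the other strand, RNF167 overlaps SLC25A11 with 200% of its counts, and HAT1 overlaps SLC25A12, which also fell, with 768%. GOT1, the cytosolic aspartate aminotransferase, rose from 44.4 ± 1.27 to 166 ± 11.5 FPKM (log2 fold change 1.98 ± 0.08, edgeR adjusted p = 3.9e-05). SLC25A10, a dicarboxylate carrier that the list holds beside the shuttle components proper, fell from 13.4 ± 1.69 to 5.70 ± 1.01 FPKM (log2 fold change -1.15 ± 0.17).

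Among 14 genes that sense glucose or set its uptake, 6 rose and 3 fell, beside 20.5% and 18.1% of all tested genes. The number that rose was 3 with upper-quartile scaling and also when CMR replicate 2 or 3 or control replicate 1, 2 or 3 was left out, as PRKAG1, TBC1D4 and ARNT (named after their values were seen) were then not called. Their edgeR adjusted p was 0.0293, 0.0351 and 0.0261, and reached 0.0964, 0.141 and 0.0965 over the 16 alternatives. TXNIP, an arrestin-like protein that removes GLUT1 from the cell surface, rose from 2.53, 2.38 and 1.92 FPKM to 11.5, 13.5 and 11.1 (log2 fold change 2.47 ± 0.15, edgeR adjusted p = 8.2e-05). Its relative ARRDC4 rose from 0.644 ± 0.158 to 2.07 ± 0.555 FPKM (log2 fold change 1.76 ± 0.27, edgeR adjusted p = 0.00233). For neither gene did the groups overlap.

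Of 13 other sugar transporter genes, 8 were tested and 1 was called: SLC2A10, with 128, 76 and 98 counts with CMR against 0, 4 and 8 in control, at 0.255 ± 0.0737 FPKM with CMR. Of 17 further isoenzymes and accessory genes, 7 were tested. EMB, the embigin chaperone of monocarboxylate transporters, fell from 18.5 ± 0.459 to 8.21 ± 1.84 FPKM (log2 fold change -1.10 ± 0.16, edgeR adjusted p = 0.00191). LDHD, the D-lactate dehydrogenase, rose from 0.311 ± 0.138 to 0.824 ± 0.216 FPKM (edgeR adjusted p = 0.0232). LDHD did not pass when CMR replicate 1 (0.0572) or 3 (0.0728) or control replicate 2 (0.0539) or 3 (0.0680) was left out, and its adjusted p ran from 0.00290 to 0.0728 over the 16 alternatives. Among 16 genes of glycogen and hexose entry, 4 rose and 5 fell, beside 20.5% and 18.1% of all tested genes. Without control replicate 1 or 2, 3 rose and 3 fell, since PYGL, GALT and MPI were then not called (named after their values were seen). PMM2, which makes mannose 1-phosphate for glycosylation, rose from 8.24 ± 0.403 to 16.6 ± 1.29 FPKM (log2 fold change 1.09 ± 0.10). GALK1, galactokinase, fell from 2.25 ± 0.488 to 0.949 ± 0.0449 FPKM (log2 fold change -1.16 ± 0.20); it overlaps ITGB4 on the other strand, which had 212% of its counts and a log2 fold change of -1.30.

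Of 6 genes listed with gluconeogenesis, 2 were tested. G6PC3, the ubiquitous glucose 6-phosphatase, rose from 2.54 ± 0.181 to 3.52 ± 0.242 FPKM (edgeR adjusted p = 0.0120). It did not pass when control replicate 2 was left out (0.0517), with adjusted p from 0.000382 to 0.0517 over the 16 alternatives. SLC37A4, the glucose 6-phosphate transporter of the endoplasmic reticulum, fell from 3.91 ± 0.170 to 1.92 ± 0.396 FPKM (log2 fold change -0.95 ± 0.16); it overlaps TRAPPC4 on the other strand, which had 140% of its counts. FBP1 and G6PC, enzymes of glucose production in liver, and FBP2 were at 0 counts in all 6 libraries.

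**Figure D5:**
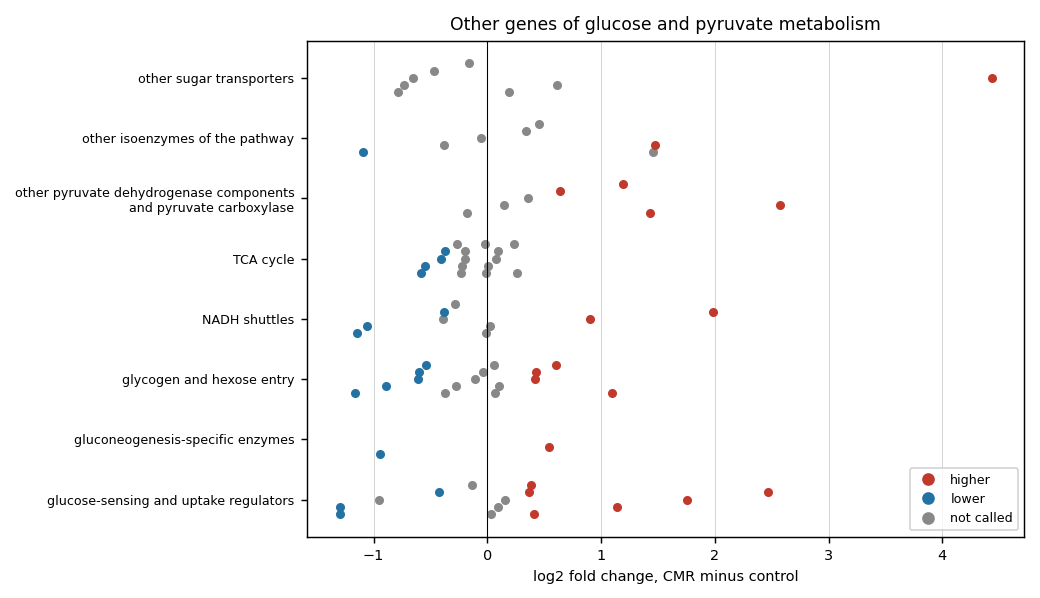
Fitted log2 fold change (CMR minus control) of every tested gene of 8 further lists of glucose and pyruvate metabolism, 1 row of points per list; red, blue and grey mark genes called higher, called lower and not called. The TCA cycle holds 4 genes called lower. The list of pyruvate dehydrogenase components and pyruvate carboxylase, which also includes PCK2 (2.57), holds 4 genes called higher.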

How the data were processed

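RNA of 6 PANC-1 libraries (3 CMR, 3 control) was selected for poly(A) and sequenced as paired ends, per the labels' protocols, which also speak of an adipose type of RNA. The deposited table gives, per the file headers, whole-number counts without normalization and FPKM values; the authors list genes without counts at 0.0001 FPKM. Bowtie 0.12.2, HISAT2 2.0, StringTie 1.3.0 and the mouse build mm8 are named, without roles, in the submitters' processing notes. The identifiers are human, and 81.2% of 58552 shared genes have the span of GENCODE release 29 (15 of the 37 members), so coordinates were read as GRCh38. Use of strand in counting is not given in the sources used here.

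Counts were tested with edgeR 4.0.16 (TMM scaling, filterByExpr with minimum count 10 and total 15, Benjamini-Hochberg adjustment). The fit was also run on counts simulated from its own model with few changed genes. That run does not show how the fit behaves where many genes differ. The SE is the log2 fold change over the root of F, which is unreliable where both are near 0, as for SLC2A3. Step sums and shares of FPKM used an exact permutation test (scipy 1.17.1). Overlapping genes are given from 10% of a gene's mean count. The alternatives were other scalings, no filter, DESeq2 1.42.0, limma 3.58.1 on log2(FPKM + 1) and log2(FPKM + 0.1), a block on the replicate number, each library left out, numbered pseudogenes added and, chosen after seeing the data, the gene over ALDOA added. All 37 members are named, and from each other list the 2 called genes with the largest change, or all where fewer than 3 were called. The 3 promoters shown were chosen after their values were seen. The members and lists were chosen with earlier results of these data known. One gene of the ductal marker list is not reported here.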

Additional observations from a re-analysis of the deposited data

How the results depend on the processing

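Of the 24 called members, 16 (7 higher, 9 lower) kept their call under all 16 alternatives: SLC2A1, HK2, HKDC1, PFKFB4, TIGAR, PDK1 and MPC1 higher, and PFKM, PFKP, PFKFB3, TPI1, PGAM1, ENO1, LDHA, SLC16A3 and PDK4 lower. The share of all called genes that kept their call is not given here, so the members cannot be compared with it. Among these alternatives, adding the gene over ALDOA changed the counts of no other member, and numbered pseudogenes were found for 13 members only. For most members these alternatives could therefore hardly change the call. The number of members called higher ran from 7 to 9 and of those called lower from 11 to 19. Leaving out 1 library gave 5660 to 7711 called genes. Upper-quartile scaling shifted the median of all 19200 log2 fold changes from -0.01 to -0.14 and turned the split of all calls to 3250 higher and 4324 lower (3928 and 3476 with TMM); it called 8 members higher and 19 lower. In the other lists, alternatives beside other scalings and DESeq2 were added after seeing the data. With upper-quartile scaling, 1 pyruvate dehydrogenase gene (DLD, 0 with TMM) and 7 TCA cycle genes were lower and 3 glucose-sensing genes higher. The sign of uncalled members changed under it for PFKL (-0.085), PGK1 (-0.10), BPGM (-0.018), ENO2 (-0.043) and PDHB (-0.012). Without a composition factor it changed for PFKL (-0.027) and PGK1 (-0.045), with limma on log2(FPKM + 1) for PFKL (-0.026), PGK1 (-0.049) and ENO2 (-0.041), and with log2(FPKM + 0.1) for PFKL (-0.036), PGK1 (-0.049) and ENO2 (-0.067). SLC2A3 was at 0.055 with pseudogenes added and 0.52 with the replicate block. Leaving out 1 library took SLC2A3 from -0.60 to 0.63, PFKL from -0.029 to 0.17, ENO2 from -0.24 to 0.35 and the PFKP share, CMR minus control, from -1.22 to 0.33 percentage points. Causes were not tested. With counts in place of FPKM, the difference in share was 4.70 points for HKDC1 (6.64 with FPKM), -15.7 for PFKFB3 (-20.7) and 35.7 for PDK1 (43.8). Leaving out 1 library gave 0 to 2 other sugar transporters lower, 0 to 1 other isoenzymes higher and 1 to 2 lower, 0 to 1 TCA cycle genes higher and 3 to 6 lower, 3 to 6 glycogen and hexose genes lower, 0 to 1 gluconeogenesis genes higher and 3 to 5 glucose-sensing genes higher.

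With the replicate number as a block, 6737 genes were called, 8 members higher and 15 lower, and 2 other isoenzymes lower. It ended the calls of PFKFB2 (0.0549), HIF1A (0.0515), SDHA (0.0790), SLC25A11 (0.0754), PRKAG1 (0.0514), TBC1D4 (0.0711) and PRSS1 (0.0771), given as adjusted p. Same-numbered libraries deviated from their group means together with r of 0.0673, 0.0682 and 0.0595 over 19200 genes, below the 0.1 set for pairing. In these deviations each CMR library correlated best with the control library of its own number, which is a hint from the data, not from the design. In log expression itself, every CMR library correlated best with control replicate 3.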

Other observations

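Other glucose-handling genes also moved, and are named here after their values were seen. EPAS1, which encodes HIF-2 alpha, had 17.7, 9.03 and 13.98 FPKM with CMR and 34.5, 35.1 and 35.8 in control (fitted log2 fold change -1.30 ± 0.22, edgeR adjusted p = 0.00323). HIF1A, for HIF-1 alpha, fell from 33.8 ± 2.54 to 23.9 ± 2.89 FPKM (SD, n = 3, edgeR adjusted p = 0.0200). The HIF1A call did not hold without control replicate 1 (0.0753) or 3 (0.0699), its adjusted p running from 0.00502 to 0.0753 over the 16 alternatives.

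PRKAB1, a regulatory subunit of the energy sensor AMPK, rose from 6.46 ± 0.335 to 13.5 ± 1.96 FPKM (log2 fold change 1.14 ± 0.13, edgeR adjusted p = 0.000735), and TBC1D1, a Rab GTPase-activating protein that AMPK phosphorylates, fell from 3.84 ± 0.130 to 1.48 ± 0.303 FPKM (log2 fold change -1.30 ± 0.15, edgeR adjusted p = 0.000773). In glycogen metabolism, the synthase GYS1 fell from 4.62 ± 0.199 to 2.35 ± 0.122 FPKM (edgeR adjusted p = 0.00106) while the branching enzyme GBE1 rose from 10.5 ± 0.351 to 15.1 ± 0.256 FPKM (edgeR adjusted p = 0.00139).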
